A study of Mus musculus with 60 samples.

Results

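The 30 genes described here encode enzymes and regulators of cholesterol and fatty acid synthesis, and all 30 were found among the 24260 gene symbols of the deposited nascent RNA values. They were taken by symbol, as 18 sterol enzymes from Acat2 to Dhcr7, 6 genes of sterol sensing and transport (Srebf1, Srebf2, Scap, Insig1, Insig2 and Stard4) and 6 genes of fatty acid synthesis (Acly, Acaca, Fasn, Scd1, Scd2 and Elovl6). For symbols with more than 1 transcript, the one whose RPKM (read density normalised to gene length and library size) summed highest over the 4 libraries stood for the gene.

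The series asked how inactivating enhancers through knockdown of the nuclear receptor Esrrb affects gene expression within sub-domains of chromatin. Nascent RNA was measured in siEsrrb cells, which were E14 mouse embryonic stem cells transfected with an siRNA against Esrrb (2 libraries), and in siCtrl cells, which were the same line transfected with a control siRNA (2 libraries). Both groups shared the cell line, the serum and LIF medium, the gelatin-coated plates without a mention of feeder cells, the lipid transfection and the harvest 72 h later. RNA came from the chromatin pellet, so introns and exons were both read. An siRNA lowers its target in part and for a time, and E14 is a single line. The other 56 samples, which hold mRNA-seq, 4C and ChIP-seq with its inputs, are not used here.

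Cholesterol and fatty acids are both built from acetyl-CoA. The sterol branch joins acetyl-CoA units to mevalonate, turns mevalonate into isoprenoid units, condenses these to squalene, closes the ring system and trims the product to cholesterol. The fatty acid branch makes acetyl-CoA from citrate, carboxylates it, assembles palmitate, and then lengthens and desaturates the chain. Both branches are controlled by the SREBP transcription factors, which the escort protein Scap carries out of the endoplasmic reticulum when sterols are scarce and which the Insig proteins hold back when sterols are abundant. Esrrb belongs to the estrogen-related receptors, a family known for binding genes of energy metabolism.

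Read totals recovered from the RPKM, as those that give whole reads, were 22363943 and 61857158 in siEsrrb replicates 1 and 2. In siCtrl replicates 1 and 2 they were 24764879 and 68002338. The targeted gene checked the labels: Esrrb had 1.50 and 2.08 scaled RPKM in siEsrrb replicates 1 and 2, against 3.39 and 3.10 in siCtrl, or 44.2% and 67.0% of control (log2 fold change -0.72, SE 0.15, limma adjusted p 0.281). These are nascent RNA values, and how far Esrrb mRNA or protein fell was not examined here. All 10 stem cell markers examined were above the expression minimum, with a summed level of 114 and 118 RPKM in siEsrrb and 127 and 139 RPKM in siCtrl. In 5 of the 10 both siEsrrb values lay below both siCtrl values (22.0% of all tested genes) and in 1, Pou5f1, above (21.8%). The unadjusted limma p was under 0.05 for 4, all lower, among them Zfp42 at 46.6% and 62.8% of control and Fgf4 at 58.4% and 64.9%. The part of this in the results below was not tested. Of 10 fibroblast, 10 primitive endoderm and 6 trophectoderm markers, 0 passed that minimum (a mean of 0.5 RPKM). Fibroblast markers summed to 0.530 and 0.998 RPKM in siEsrrb and 0.404 and 0.827 in siCtrl, and Lum was at 0 in all 4 libraries. Primitive endoderm markers summed to 0.319 and 0.323 RPKM in siEsrrb and 0.307 and 0.370 in siCtrl. Trophectoderm markers summed to 0.638 and 0.667 RPKM in siEsrrb and 0.427 and 0.553 in siCtrl. The submitters' claim of biological replication leaves out the nascent RNA libraries, so p-values speak only to the spread seen among the libraries, which may be technical. In bulk RNA, fewer cells of a type and less RNA per cell cannot be told apart.

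Most genes of both branches were transcribed at moderate levels. Of the 30 genes, 26 had a mean of at least 0.5 RPKM and were tested. Nsdhl, Ebp and Insig2 lay below that minimum at 0.486, 0.374 and 0.494 RPKM, and just above it lay Hsd17b7 at 0.514. Hmgcs1, which makes HMG-CoA, was listed at 0 in all 4 libraries under both of its transcript IDs. A 0 of this kind can be a failed estimate, so it is given as listed and no more is read from it.

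Fatty acid synthase, Fasn, had the highest level of the 30, with 10.8 and 8.58 scaled RPKM in siEsrrb and 8.20 and 7.62 in siCtrl. Its lowest value stood above the highest value of each of the other genes. Scd2 came next with a mean of 4.52 RPKM, followed by Srebf2 (3.72), Acly (3.53), Insig1 (3.22), Sqle (3.15) and Srebf1 (3.06). These means are levels per length as deposited, and from Scd2 to Srebf1 the scaled values of each gene overlapped those of the next gene down. Among 28 neighbouring pairs in the order of levels, 4 did not overlap: Fasn above Scd2, Acaca above Scap, Scap above Hsd17b7 and Nsdhl above Ebp. At the lower end, the NAD(P)-dependent steroid dehydrogenase gene Nsdhl had 0.490 and 0.448 scaled RPKM in siEsrrb and 0.508 and 0.494 in siCtrl. The sterol isomerase gene Ebp had 0.428 and 0.419 in siEsrrb and 0.321 and 0.327 in siCtrl.

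**Figure D1:**
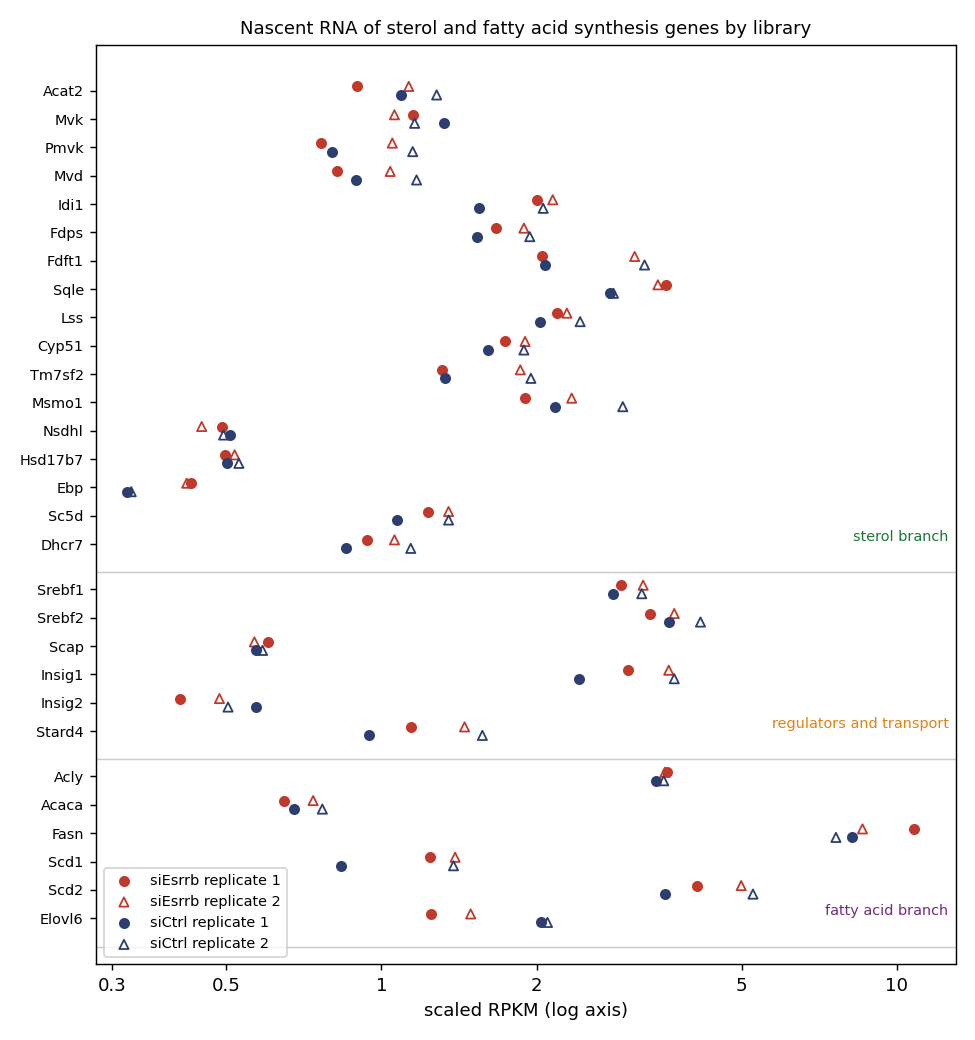
Scaled RPKM (log axis) of the 29 genes with values, one row per gene, in siEsrrb (red) and siCtrl (blue) libraries. Circles are replicate 1 and open triangles replicate 2. Fasn lies to the right of all other genes, between 7.62 and 10.8, and for many genes the 2 triangles lie to the right of the 2 circles.

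The values rest on whole gene spans of 5030 bases (Tm7sf2) to 206214 bases (Acaca) among the tested genes, with a median of 17003 bases, against 19493 for tested protein-coding genes. Recovered reads per gene ran from 72 (Ebp) to 4111 (Fasn) in siEsrrb replicate 1 and from 224 (Ebp) to 13916 (Srebf2) in siEsrrb replicate 2. They ran from 62 (Ebp) to 5097 (Elovl6) in siCtrl replicate 1 and from 197 (Ebp) to 17643 (Srebf2) in siCtrl replicate 2.

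The comparison of siEsrrb with siCtrl cells asked whether synthesis genes changed with the knockdown. No gene of the set passed the test, and most differences were small: 22 of 26 had a log2 fold change within 0.2 of 0, where 74.9% of all tested genes lay. Limma called 0 of 26 genes at an adjusted p under 0.05, and percent called was 0 over all 9758 genes tested (smallest adjusted p 0.247). At an unadjusted limma p under 0.05 there were 2 of 26, Elovl6 (lower) and Sqle (higher), where 11.3% of all tested genes lay. The median log2 fold change of the 26 was 0.01, against -0.0010 over all tested genes. The median size of the change without its sign was 0.06, against 0.10.

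Genes with both siEsrrb values on one side of both siCtrl values were, with all 4 libraries, a smaller share than over all genes. This held in each direction, but with 1 siCtrl library left out it held in only 1 direction. With all 4, such genes were 3 higher (Sqle, Acly and Fasn) and 2 lower (Mvk and Elovl6). Over all tested genes, 21.8% were higher in this way and 22.0% lower. These counts rest on single libraries and take no account of replicate number. Without its sign, the median log2 difference between replicate numbers was 0.20 for the 26 genes, against 0.11 over all tested genes. The part of this in the counts was not tested. Without siCtrl replicate 2 there were 14 higher and 2 lower of 25, where 35.6% of all tested genes were higher and 33.6% lower. Without siCtrl replicate 1 there were 3 higher and 18 lower of 26, where 36.2% and 39.2% of all tested genes were. Without siEsrrb replicate 1 there were 7 higher and 4 lower of 27 (33.7% and 32.0% of all tested genes), and without siEsrrb replicate 2 there were 4 higher and 11 lower of 26 (37.2% and 40.0%). In these settings, except without siEsrrb replicate 1, the set's share lay above that of all genes in one direction and below it in the other. Without siEsrrb replicate 1 the set's share lay below in both directions. Within replicate pairs, 7 genes were higher in siEsrrb in both pairs (37.8% of all tested genes), 11 were lower in both (39.7%) and 8 went opposite ways (22.6%). With 2 libraries per group, the 95% intervals of the limma fit reached from 0.20 to 0.71 on either side of the log2 fold change. For 15 of 26 genes the interval lay within 0.5 of 0, and for the other 11 it reached beyond.

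Elovl6, the elongase that extends palmitate, had the largest difference of the set. It had 1.25 and 1.49 scaled RPKM in siEsrrb replicates 1 and 2, against 2.04 and 2.10 in siCtrl. Both siEsrrb values lay below both siCtrl values. This was 61.2% of control in replicate 1 (95% interval 58.4% to 64.2%) and 71.0% in replicate 2 (69.3% to 72.8%), with exact binomial (Clopper-Pearson) intervals that cover counting error only, here from 2720 reads or more per library. The fitted log2 fold change was -0.46 (SE 0.09, n = 2 per group, 95% interval -0.71 to -0.22) with a limma adjusted p of 0.281. Of all tested genes, 2.81% had a change as low or lower. The nearest tested genes on either side of Elovl6 in the GRCm38.p6 order were Pou5f1-rs4, with a log2 fold change of -0.07 (SE 0.08), and Gar1, a gene of H/ACA ribonucleoproteins, with 0.21 (SE 0.17).

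Squalene epoxidase, Sqle, which catalyses a rate-limiting oxygenation of the sterol branch, had the largest log2 fold change in the other direction among the tested genes. It had 3.56 and 3.44 scaled RPKM in siEsrrb, against 2.78 and 2.82 in siCtrl. The groups did not overlap, and within each group the 2 libraries lay close together. Sqle stood at 128% of control in replicate 1 (118% to 139%, counting error) and 122% in replicate 2 (116% to 128%). Its log2 fold change was 0.28 (SE 0.07, 95% interval 0.07 to 0.48) with a limma adjusted p of 0.355, and 9.84% of all tested genes had a change as high or higher.

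Fasn, the multienzyme that assembles palmitate, was higher in both siEsrrb libraries, with the values given above. It was at 131% of control in replicate 1 (125% to 137%) and 113% in replicate 2 (110% to 116%). The scaled means were 9.67 ± 1.54 RPKM in siEsrrb and 7.91 ± 0.409 RPKM in siCtrl (SD, n = 2 each), a log2 fold change of 0.27 (SE 0.15, limma adjusted p 0.579), which was 0.11 without siEsrrb replicate 1 and 0.42 without siEsrrb replicate 2. Methylsterol monooxygenase, Msmo1, went the other way within pairs. It had 1.90 and 2.34 scaled RPKM in siEsrrb, against 2.17 and 2.94 in siCtrl, so that the groups overlapped. Its level was 87.4% of control in the first pair and 79.7% in the second, and its fitted log2 fold change of -0.22 (SE 0.17) had a limma adjusted p of 0.679. The value depended on single libraries, with -0.03 without siCtrl replicate 2 and -0.40 without siCtrl replicate 1.

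**Figure D2:**
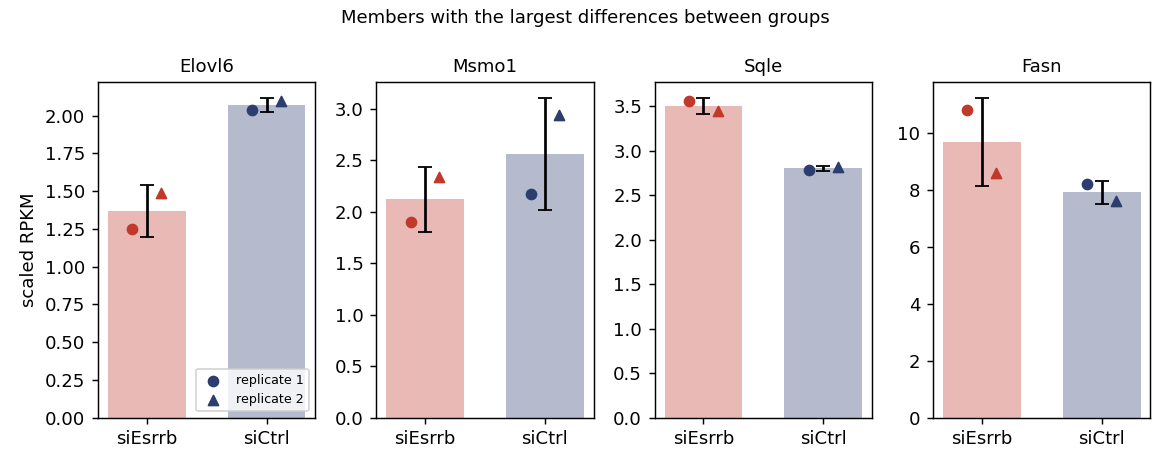
Scaled RPKM of Elovl6, Msmo1, Sqle and Fasn in siEsrrb (left, red) and siCtrl (right, blue). Bars are means of 2 libraries with SD, circles replicate 1 and triangles replicate 2. Elovl6 is lower in both siEsrrb libraries (1.25 and 1.49, against 2.04 and 2.10), Sqle and Fasn are higher, and Msmo1 overlaps between groups.

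No gene of the first sterol steps passed the test, and neither did any other of the 9758 tested genes. Of the 6 tested genes of these steps, 4 were below control in both pairs, as were 39.7% of all tested genes. Acat2, the cytosolic thiolase that starts the pathway, had 0.896 and 1.13 scaled RPKM in siEsrrb, against 1.09 and 1.28 in siCtrl (82.4% and 88.3% of control, log2 fold change -0.16, SE 0.11). Mevalonate kinase, Mvk, had 1.15 and 1.06 in siEsrrb, against 1.32 and 1.16 in siCtrl (log2 fold change -0.12, SE 0.08). Its groups did not overlap, although the gap between 1.15 and 1.16 is small. The phosphomevalonate kinase gene Pmvk and the decarboxylase gene Mvd were below control in both pairs, with log2 fold changes of -0.07 (SE 0.17) and -0.10 (SE 0.13). The isomerase gene Idi1 had 2.00 and 2.15 scaled RPKM in siEsrrb, against 1.55 and 2.06 in siCtrl, and was above control in both pairs (129% and 104%, log2 fold change 0.17, SE 0.13). Fdps, which joins the isoprenoid units to farnesyl diphosphate, had 0.03 (SE 0.12). The 6 tested genes of these steps had a median log2 fold change of -0.08.

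Of the later steps, from squalene to cholesterol, the 7 tested genes besides Sqle and Msmo1 had log2 fold changes from -0.03 to 0.07. Squalene synthase, Fdft1, had 2.05 and 3.10 scaled RPKM in siEsrrb, against 2.08 and 3.24 in siCtrl. The 2 groups were nearly equal within each pair (98.7% and 95.9% of control), while the replicates of each group lay apart. The ring-closing cyclase gene Lss and the lanosterol demethylase gene Cyp51 had log2 fold changes of 0.01 (SE 0.10) and 0.05 (SE 0.09). Tm7sf2, a sterol reductase gene, had -0.03 (SE 0.20), Hsd17b7, a ketosteroid reductase gene, -0.01 (SE 0.08) and the desaturase gene Sc5d 0.07 (SE 0.11). Dhcr7, the reductase of the final step, had 0.936 and 1.06 scaled RPKM in siEsrrb, against 0.854 and 1.14 in siCtrl (0.01, SE 0.12). The 9 tested genes of these steps had a median of 0.01. In the fit without a filter on low values, Nsdhl had -0.05 (SE 0.07) and Ebp 0.16 (SE 0.06), with limma adjusted p of 0.889 and 0.549. The 2 siEsrrb values of Ebp both lay above its siCtrl values, at 133% of control in replicate 1, where 72 and 62 reads gave an interval of 93.6% to 190%, and 128% in replicate 2 (105% to 156%).

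No regulator of the pathway passed the test, and neither did any other of the 9758 tested genes. The values of the 5 tested regulators overlapped between groups. Over all tested genes, 21.8% lay higher without overlap and 22.0% lower. Srebf2, the SREBP gene of the sterol branch, had 3.32 and 3.70 scaled RPKM in siEsrrb, against 3.61 and 4.16 in siCtrl, or 92.1% and 88.9% of control (log2 fold change -0.13, SE 0.11). Srebf1, the SREBP gene of the fatty acid branch, had 2.92 and 3.22 in siEsrrb, against 2.82 and 3.20 in siCtrl (0.02, SE 0.10). The escort gene Scap had 0.0068 (SE 0.08). Insig1, itself an SREBP target, had 3.01 and 3.61 in siEsrrb, against 2.42 and 3.70 in siCtrl, so that it was at 124% of control in replicate 1 and 97.4% in replicate 2 (0.12, SE 0.21). Stard4, a sterol carrier, also split by replicate (120% and 92.1% of control, 0.04, SE 0.21). Insig2 had 0.406 and 0.485 in siEsrrb, against 0.572 and 0.504 in siCtrl, so that the groups did not overlap, at 71.0% of control in replicate 1 (59.1% to 85.2%) and 96.3% in replicate 2 (87.1% to 106%). In the fit without the filter its log2 fold change was -0.13 (SE 0.09, limma adjusted p 0.729).

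In the fatty acid branch the 4 genes besides Elovl6 and Fasn had log2 fold changes from -0.04 to 0.20. Acly, which makes cytosolic acetyl-CoA from citrate, had 3.58 and 3.55 scaled RPKM in siEsrrb, against 3.41 and 3.53 in siCtrl. These groups did not overlap, but the log2 fold change was 0.03 (SE 0.08) and stood at -0.0042 without further scaling of the RPKM. The carboxylase gene Acaca had -0.04 (SE 0.09). Of the stearoyl-CoA desaturase genes, Scd1 had 1.24 and 1.39 in siEsrrb, against 0.834 and 1.38 in siCtrl (149% and 101% of control, 0.20, SE 0.19), and Scd2 had 4.09 and 4.99 in siEsrrb, against 3.55 and 5.26 in siCtrl (0.06, SE 0.21). Scd1 and Scd2 are close paralogs of one gene cluster, and how reads matching both were counted is not given in the sources used here, so their split is uncertain.

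The medians of the branches all lay close to 0, while single genes spread more widely. The 15 tested sterol enzymes centred on -0.01 as their median log2 fold change, with -0.0073 for the replicate 1 pair and -0.05 for the replicate 2 pair, and with single genes from -0.22 to 0.28. The 6 fatty acid genes had a median of 0.04 (0.12 and -0.01), with single genes from -0.46 to 0.27, and the 5 tested regulators had 0.02 (0.04 and -0.03), which was -0.01 without further scaling. Each median changed sign with single libraries left out: the sterol median was -0.10 without siCtrl replicate 1, 0.14 without siCtrl replicate 2, 0.08 without siEsrrb replicate 1 and -0.05 without siEsrrb replicate 2. Over all tested genes the medians of the pairs were -0.0037 in replicate 1 and -0.0031 in replicate 2. The sterol median lay below the fatty acid median by 0.06 on the log2 scale, and this difference had a spread (SD) of 0.06 between the 2 replicate pairs. No p-value is given, because the genes are not replicates.

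**Figure D3:**
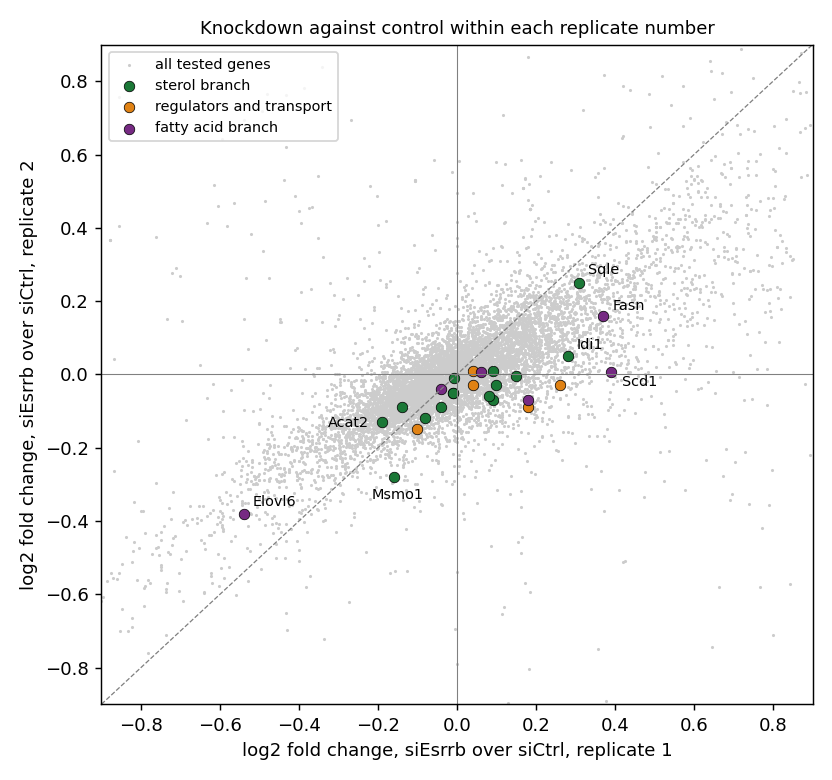
Log2 fold change of siEsrrb over siCtrl in replicate 1 (horizontal) and replicate 2 (vertical) for the 26 tested genes of the set, coloured by branch, over all tested genes in grey (416 grey genes lie outside the axes). Elovl6 is at the lower left and Sqle and Fasn at the upper right, and most coloured points lie below the dashed line of equal change.

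Levels also differed by replicate number. In both groups, 21 of 26 genes (80.8%) were higher in replicate 2 than in replicate 1, where 38.0% of all tested genes and 39.5% of tested protein-coding genes were. The median log2 ratio of replicate 2 over replicate 1 was 0.12 in siEsrrb and 0.23 in siCtrl for the 26 genes, against 0.0026 and 0.0025 over all tested genes. Fdft1 was 1.51-fold higher in replicate 2 in siEsrrb and 1.55-fold in siCtrl, and Tm7sf2 was 1.41-fold and 1.46-fold higher. Insig1 was 1.20-fold higher in siEsrrb and 1.53-fold in siCtrl, Stard4 1.27-fold and 1.66-fold, and Scd2 1.22-fold and 1.48-fold. Fasn had the reverse order, with 0.798-fold in siEsrrb and 0.929-fold in siCtrl, as did Mvk with 0.920-fold and 0.878-fold. Sqle had nearly equal replicates (0.965-fold and 1.02-fold).

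The mean difference between replicate numbers was larger than the fitted difference between groups for 21 of 26 genes, where 51.9% of all tested genes had it so. The increase in replicate 2 was larger in siCtrl than in siEsrrb for 22 of 26 genes (47.8% of all tested genes), which is the same as saying that siEsrrb stood higher against control in replicate 1 than in replicate 2. The replicate 2 libraries were deeper by the recovered read totals. The submitters' processing notes name Bowtie 1.1.1 and Bowtie2 for replicate 1 besides CASAVA 1.4 and TopHat2, which they name for both. The part of depth, of processing and of the cultures in this difference was not tested.

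**Figure D4:**
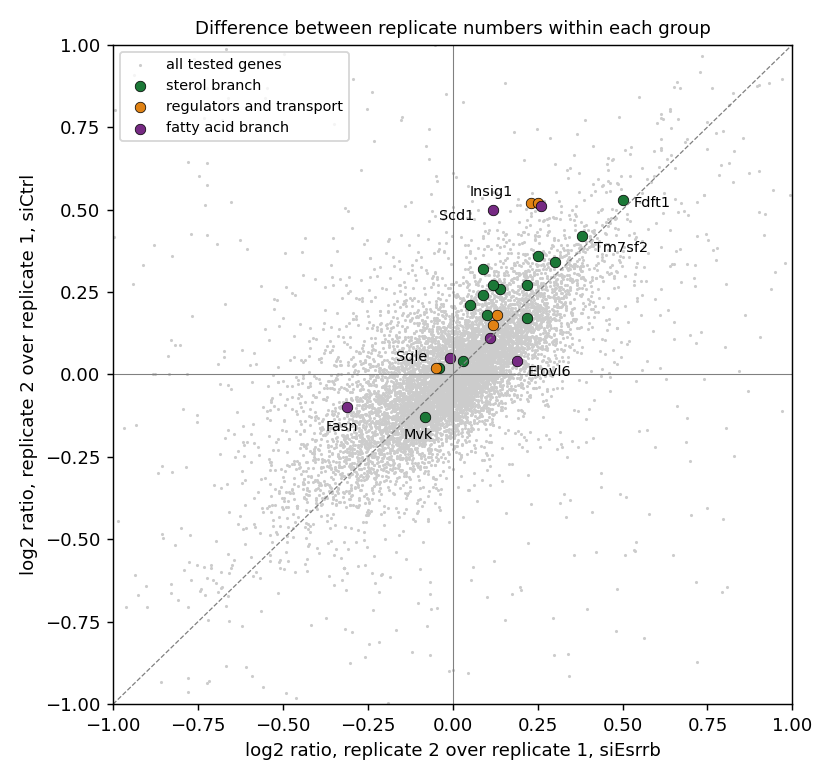
Log2 ratio of replicate 2 over replicate 1 in siEsrrb (horizontal) and in siCtrl (vertical) for the 26 tested genes, coloured by branch, over all tested genes in grey (261 grey genes lie outside the axes). Most coloured points lie in the upper right part and above the dashed line of equal ratios, with Fdft1 farthest to the right and Fasn and Mvk at the lower left.

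Promoter sequence was compared for the genes with an entry in the RefSeq promoter table (GRCm38.p6, 250 bases before to 50 after the start). Of the 30 genes, 24 had 1 or more entries, 32 promoters in all, and Fdps, Fdft1, Sqle, Scd1, Scd2 and Stard4 had none. The letters searched on both strands were AAGGTCA, the half-site of estrogen-related receptors, its longer form TCAAGGTCA, TCACNCCAC, a core of the sterol regulatory element, and CCAAT, the box bound by NF-Y. TCAAGGTCA contains AAGGTCA, so the first 2 overlap by design. Shown are the 250 bases before the start of Elovl6, Fasn and Msmo1, chosen as the genes with the largest differences among those with an entry, and of Dhcr7, chosen because its promoter holds AAGGTCA. Capitals mark CCAAT or AAGGTCA on either strand, and all read 5′ to 3′ along the gene:
Elovl6, chr3:129532136-129532385, plus strand: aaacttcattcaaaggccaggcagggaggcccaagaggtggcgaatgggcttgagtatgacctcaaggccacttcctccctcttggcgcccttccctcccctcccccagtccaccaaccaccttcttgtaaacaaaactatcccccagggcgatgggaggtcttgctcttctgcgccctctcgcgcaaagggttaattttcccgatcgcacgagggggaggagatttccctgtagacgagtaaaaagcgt
Fasn, chr11:120824548-120824797, minus strand: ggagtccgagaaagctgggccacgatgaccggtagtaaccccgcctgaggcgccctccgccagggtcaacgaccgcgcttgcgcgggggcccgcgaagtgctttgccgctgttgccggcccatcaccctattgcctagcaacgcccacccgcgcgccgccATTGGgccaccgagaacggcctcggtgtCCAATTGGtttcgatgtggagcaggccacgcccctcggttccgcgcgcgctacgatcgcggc
Msmo1, chr8:64733579-64733828, minus strand: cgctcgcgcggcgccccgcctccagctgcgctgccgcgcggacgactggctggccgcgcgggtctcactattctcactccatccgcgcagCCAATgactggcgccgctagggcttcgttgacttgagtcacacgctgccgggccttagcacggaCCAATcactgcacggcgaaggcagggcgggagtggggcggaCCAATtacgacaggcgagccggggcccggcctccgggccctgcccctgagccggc
Dhcr7, chr7:143822917-143823166, plus strand: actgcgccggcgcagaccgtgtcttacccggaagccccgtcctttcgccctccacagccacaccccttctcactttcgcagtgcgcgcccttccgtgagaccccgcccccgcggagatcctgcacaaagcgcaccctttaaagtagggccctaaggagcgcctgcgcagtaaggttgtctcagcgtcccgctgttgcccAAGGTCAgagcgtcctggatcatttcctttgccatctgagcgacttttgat

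AAGGTCA was found in 2 of the 32 promoters (6.25%), those of Dhcr7 and Hmgcs1, where 4.72% of 32851 promoters of the same length held it. In 1 of the 3 promoters of Dhcr7 it begins 51 bases before the start, and this gene had a log2 fold change of 0.01. TCAAGGTCA was in 0 of 32 (0.423% of all promoters), and TCACNCCAC in 1 of 32, that of Hmgcs1 (1.24% of all). CCAAT was in 21 of 32 promoters (65.6%), of 20 genes, against 37.4% of all promoters. The upstream stretch of Fasn held 3 matches, 2 of which overlap on opposite strands, and that of Msmo1 held 3. The stretches shown of Elovl6 and Dhcr7 held 0. Another of the 3 promoters of Dhcr7 did hold CCAAT, so this gene is among the 20. Whether CCAAT matches go with a change after the knockdown was not tested. These matches describe letters in these windows and say nothing about binding.

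Overlap with other genes limits what some values measure. In the GRCm38.p6 annotation, 7 of the 30 genes overlap another gene that was itself tested, among them Fdft1 with Ctsb, Tm7sf2 with Vps51, Srebf1 with Rai1 and Acaca with Tada2a. The use of strand in the authors' counting is not given in the sources used here, so reads of such partners cannot be told apart. Elovl6, Sqle and Fasn overlap no other tested gene.

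Genes around the pathway, from lists of related functions, also showed single differences and medians near 0. Of 13 genes of the isoprenoid side branches, which lead to prenylated proteins, dolichol and ubiquinone, 12 were tested, with 0 at an unadjusted limma p under 0.05 (11.3% of all tested genes) and a median log2 fold change of 0.0035. The most abundant, Rabggtb, which encodes a subunit of the Rab prenyltransferase, had 21.8 and 21.2 scaled RPKM in siEsrrb, against 22.0 and 20.5 in siCtrl. Of 17 genes of SREBP processing and sterol sensing, 14 were tested, with a median of -0.04. In 6 of the 14 both siEsrrb values lay below both siCtrl values (22.0% of all tested genes), in 0 above (21.8%), and 9 were lower in both pairs (39.7%). In this list 1 gene had an unadjusted limma p under 0.05, where 11.3% of all tested genes did. That gene was Nfyc, a subunit of NF-Y, at 81.2% and 86.0% of control (log2 fold change -0.19, SE 0.06, limma adjusted p 0.412). The most abundant of them, the oxysterol receptor gene Nr1h2, had 0.11 (SE 0.15).

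Further genes of fatty acid synthesis, elongation, desaturation and activation numbered 27, of which 16 were tested, with a median of -0.04 and 2 at an unadjusted limma p under 0.05 (11.3% of all tested genes), both higher. Mid1ip1, which encodes a protein that promotes polymerisation of acetyl-CoA carboxylase, had 1.91 and 1.94 scaled RPKM in siEsrrb, against 1.30 and 1.33 in siCtrl. The groups did not overlap, and the log2 fold change was 0.42 (SE 0.06) with a limma adjusted p of 0.247, from 92 and 296 reads in siEsrrb and 72 and 229 in siCtrl. Elovl1, an elongase of saturated very long chains, had 1.14 and 1.22 in siEsrrb, against 0.899 and 0.978 in siCtrl (0.22, SE 0.07, limma adjusted p 0.407). Its direction was opposite to that of Elovl6. The citrate carrier gene Slc25a1, the most abundant of the list, had 0.14 (SE 0.09).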

How the data were processed

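The authors deposited 1 RPKM value per RefSeq transcript and library (34929 transcripts). Per the submitters' processing notes, CASAVA 1.4, TopHat2 and build mm9 were used for all 4 libraries, and the notes add Bowtie 1.1.1 and Bowtie2 for replicate 1. No source used here gives the counting program, the annotation, the use of strand or the treatment of reads with several matches. Symbols came from RefSeq (GRCm38.p6) for 34631 transcripts. A table of the whole series that repeats the replicate 1 values was not used.

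Of 31771 transcripts above 0, 31768 came out as whole reads (to within 0.01) in each of the 4 libraries. Recovered lengths lay within 1% of the annotated span for 74.2% of 15180 genes. These 15180 had a single transcript, whole reads and a recovered length that was not multiplied to meet that span. RPKM were scaled per library by median-of-ratios factors (0.925 to 1.09), and log2(RPKM + 0.5) was tested with limma 3.58.1 in R 4.3.3 (trend, no replicate block) over genes with a mean of at least 0.5 RPKM, with Benjamini-Hochberg adjustment over all 9758 and a threshold of 0.05. Fold changes are taken after adding 0.5 RPKM and so are too small for low genes, while percentages of control use scaled RPKM alone. The smallest p an exact permutation test allows with 2 libraries in each group is 0.333. Named are all 30 genes, Esrrb, and, in the other lists, genes with an unadjusted p under 0.05 and the most abundant gene. Genes and lists were chosen with earlier results of these data known.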

Additional observations from a re-analysis of the deposited data

How the results depend on the processing

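Limma called 0 tested genes of the set with other pseudocounts, filters and scalings, the mean over transcripts and voom on the recovered reads. In the main fit it called 0 of all 9758 tested genes. For the alternatives that share is given only for voom with a replicate block, so the other counts say nothing particular to the set. Both voom fits were chosen after seeing the data. With voom and a replicate block limma called 5 of 26 (19.2%), where 27.8% of all tested genes were called. They were Elovl6 (-0.60, adjusted p 3.09e-11), Sqle (0.31, 0.000125), Fasn (0.28, 0.000323), Msmo1 (-0.28, 0.00128) and Acat2 (-0.21, 0.0446). No label pairs the libraries, whose deviations from the group means correlate by 0.386 over all tested genes for equal numbers. The limma fit of RPKM with the block called 0 of the 26. Genes with groups that do not overlap numbered 2 higher and 2 lower without further scaling (16.6% and 18.7% of all tested genes). The lower ones were 4 of 29 without a filter on low values (18.5%), 0 of 10 at a mean of at least 2 RPKM (18.5%) and 1 of 26 with quantile normalization (24.1%). Leaving out 1 library gave 3 to 14 higher (33.7% to 37.2% of all tested genes) and 2 to 18 lower (32.0% to 40.0%), where a lone library must lie outside 2 others. With 1 library left out, the median log2 fold change ranged from -0.10 to 0.14 for sterol enzymes, from -0.15 to 0.10 for regulators and from -0.07 to 0.14 for fatty acid genes, lowest without siCtrl replicate 1 and highest without siCtrl replicate 2. The sterol minus fatty acid difference, -0.06 with all libraries, ranged from -0.03 to 0.0092 with 1 left out and from -0.07 to -0.03 under the other settings. Over all settings, Elovl6 ranged from -0.60 to -0.37, Sqle from 0.24 to 0.32, Fasn from 0.11 to 0.42 and Msmo1 from -0.40 to -0.03. Acly had -0.0042 without further scaling. Overlap of groups was not computed for other pseudocounts, the block or voom. Of the 26 genes, 18 lay on the other side of 0 under at least 1 alternative. EdgeR and DESeq2 fits, intended at first, were not run, since the deposited values are RPKM. Counting intervals are widest for the genes with fewest reads, such as Ebp.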

Other observations

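Lists on the use of lipids, rather than their synthesis, also held single differences, and limma called 0 genes of either list, as of all 9758 tested genes. The largest log2 fold changes in size were -0.58 (SE 0.21) for fatty acid oxidation and 0.53 (SE 0.10) for sterol uptake, storage and export. Among the synthesis genes it was -0.46 (SE 0.09) for Elovl6, which was -0.57 with a pseudocount of 0.1 RPKM. Whether the lists differ was not tested. Without its sign, the median log2 fold change was 0.07 for fatty acid oxidation and 0.09 for sterol uptake, storage and export. It was 0.06 for the synthesis genes and 0.10 over all tested genes. Of 19 genes of fatty acid oxidation, 13 were tested, and their median log2 fold change was -0.07, with -0.05 for the first pair and -0.06 for the second. In 6 of 13 both siEsrrb libraries lay below both siCtrl libraries and in 0 above, where 22.0% and 21.8% of all tested genes did. The unadjusted limma p was under 0.05 for 3 of 13, all lower (11.3% of all tested genes). Cpt1a, the acyltransferase that commits fatty acids to the mitochondrion, had 0.315 and 0.563 scaled RPKM in siEsrrb, against 0.702 and 1.11 in siCtrl, or 44.9% and 50.5% of control (log2 fold change -0.58, SE 0.21, limma adjusted p 0.442). The carrier gene Slc25a20 had 0.321 and 0.444 in siEsrrb, against 0.739 and 0.732 in siCtrl (-0.49, SE 0.10, limma adjusted p 0.283), and the dehydrogenase gene Acadvl had -0.20 (SE 0.07). Cpt1c, the most abundant of the list, had 0.03 (SE 0.15).

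Of 15 genes of sterol uptake, storage and export, 10 were tested, with a median of -0.02. At an unadjusted limma p under 0.05 there were 2, with 1 higher and 1 lower (11.3% of all tested genes). Soat1, which esterifies cholesterol for storage, had 1.83 and 1.62 scaled RPKM in siEsrrb, against 0.944 and 1.13 in siCtrl, or 194% and 143% of control (log2 fold change 0.53, SE 0.10, limma adjusted p 0.264). Gramd1a, a sterol transfer protein gene and the most abundant of the list, had 1.79 and 2.32 in siEsrrb, against 2.67 and 2.86 in siCtrl (-0.36, SE 0.13, limma adjusted p 0.431). These 2 genes lay on opposite sides of control in both replicate pairs.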
